A study of Mus musculus with 16 samples.

Results

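Wnt signalling switches on a group of its own regulators and markers, and 10 of these genes were read out here in mouse colon organoids. The group was taken as a fixed list of feedback regulators and crypt target genes (Axin2, Nkd1, Notum, Rnf43, Znrf3, Sp5, Lgr5, Ascl2, Tnfrsf19 and Apcdd1), 10 of the 54123 genes in the tables. The rule names the genes and sets no threshold on a measured value, but the list was drawn up with earlier results of these data known. Organoids were grown from the proximal and the distal colon of 8-week-old female mice that carried a Cre-inducible mutant Braf allele and a tdTomato reporter allele, both heterozygous and neither activated by Cre for these libraries. The organoids came from 2 mice and were in month 4 of culture in WENR-plus medium, which contains Wnt3a, EGF, Noggin and R-spondin 1, after they had received Cas9 with either a Scramble-sgRNA or a Cdx2-sgRNA by lentivirus. The Cdx2-sgRNA organoids grew from single cells and were kept where both Cdx2 alleles had frameshift mutations, while no cloning step was described for the Scramble-sgRNA organoids, so clonal origin and the loss of Cdx2 cannot be told apart. After 2 days in WENR-plus medium the organoids spent 3 days either in the same medium or in WENR-minus medium, which lacks all 4 factors, so that the medium comparison is not one of Wnt alone. Region, guide and medium gave 8 groups with 2 libraries each, the libraries of a group carrying replicate numbers 1 and 2.

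In the canonical pathway, Wnt ligands bind Frizzled receptors and Lrp5 or Lrp6, the complex that destroys beta-catenin is held back, and beta-catenin joins TCF and LEF factors on DNA to raise transcription. R-spondins bind Lgr receptors and keep the ligases Rnf43 and Znrf3 from removing Frizzled receptors, which strengthens the signal. Several targets of the pathway are its inhibitors, acting at the ligand (Notum), the receptor (Rnf43, Znrf3, Apcdd1) or the relay inside the cell (Axin2, Nkd1), while Lgr5 and Ascl2 mark stem cells at the base of the colonic crypt.

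The libraries held 12465194 to 18922143 estimated counts (median 16836530), of which mitochondrial ribosomal RNA took 15.5% to 28.0%, and replicates of a group correlated at 0.949 to 0.977 in log2 CPM, the read count scaled to library size with TMM factors. The targeted gene, Cdx2, an intestinal transcription factor, gave 142 and 127 CPM in proximal Scramble-sgRNA organoids in WENR-plus medium against 29.9 and 33.3 CPM in proximal Cdx2-sgRNA organoids. Without the factors this pair gave 203 and 151 against 73.9 and 71.0 CPM. Distal organoids gave 76.8 and 67.9 against 62.3 and 50.2 CPM in WENR-plus medium and 112 and 110.0 against 126 and 86.1 CPM in WENR-minus medium, so that Cdx2 RNA was lower in the proximal Cdx2-sgRNA libraries and its ranges overlapped in distal organoids in WENR-minus medium. A frameshift need not lower RNA, so these levels do not test the distal knockout. Markers fixed for epithelium summed to 3947 to 5477 CPM in WENR-plus and 12129 to 19409 CPM in WENR-minus libraries. Of other cells, 10 mesenchymal markers summed to 0.582 to 18.8 CPM with Dcn and Lum at 0 in all 16 libraries. The 8 immune markers summed to at most 10.4 CPM with Adgre1 at 0, and 5 endothelial markers to at most 2.00 CPM with Emcn at 0. The highest values in these lists were those of Vim (10.8 CPM) and Pdgfrb (6.75 CPM), Cd68 (9.94 CPM) and Itgam (7.68 CPM), and Pecam1 (2.00 CPM). Pdgfrb, Cd68 and Itgam had reads in all 16 libraries. Proliferation markers summed to 786 to 1992 CPM in WENR-plus and 234 to 950 CPM in WENR-minus libraries, and markers of colonic differentiation to 153 to 1355 and 548 to 22396 CPM. The part of these markers in the results that follow was not tested. In bulk samples, fewer cells that express a gene and less RNA of it per cell cannot be told apart.

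Per unit of length the genes covered a wide range. In TPM, which corrects for transcript length and was summed over each gene's transcripts, Rnf43 ranged from 9.31 to 170 over the 16 libraries, Axin2 from 7.51 to 152, Lgr5 from 0.249 to 62.0 and Znrf3 from 1.02 to 23.7. Apcdd1 reached 15.7, Ascl2 10.5 and Tnfrsf19 10.1 TPM, each with at least 1 library at 0. The lowest ceilings were those of Nkd1 (5.59 TPM), Notum (5.24 TPM) and Sp5 (3.77 TPM).

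The promoter windows of the 2 genes in which a TCF/LEF word was found, and of the 2 Rnf43 starts that bear on its transcripts, are shown. Sp5 and Tnfrsf19 had called medium effects and no called Cdx2 effect, and Rnf43 had both. RefSeq windows of 300 bases on GRCm38.p6 ran from 250 bases before to 50 after a start. They were used for 6 of the 10 genes in 8 windows. Notum, Znrf3 and Lgr5 had no window, and Apcdd1 was left out of the search, so the counts that follow do not cover it. The TCF/LEF word was CTTTGAT or CTTTGAA and the CDX word CCATAAA, searched on both strands. Capitals mark a match. The TCF/LEF word was found in 2 of the 8 windows and in 8.65% of all 32851 promoter windows, and the CDX word in 0 of the 8 and in 2.75% of all. In the Sp5 window at chr2:70474673-70474972 on the plus strand the match lay 104 to 98 bases before the start. In the window of the second Tnfrsf19 start at chr14:61037938-61038237 on the minus strand, where the transcript with 89.5% of the gene's reads begins, the match read on the reverse strand lay 202 to 196 bases before the start. The Rnf43 windows at chr11:87662837-87663136 and chr11:87699647-87699946, both on the plus strand, held neither word. The windows of Axin2, Ascl2 and Nkd1 and that of the first Tnfrsf19 start, not printed, also held neither word. Axin2, Ascl2 and Rnf43 had called medium effects with each region and guide, so such calls were not confined to genes with the TCF/LEF word. A match is a word in a window and not evidence of binding.
Sp5: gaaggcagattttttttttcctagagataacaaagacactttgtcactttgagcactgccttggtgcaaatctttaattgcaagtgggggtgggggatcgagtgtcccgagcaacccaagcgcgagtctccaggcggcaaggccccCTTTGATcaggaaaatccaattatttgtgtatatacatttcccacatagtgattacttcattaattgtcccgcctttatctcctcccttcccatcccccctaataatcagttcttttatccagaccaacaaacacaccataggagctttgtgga
Tnfrsf19, second start: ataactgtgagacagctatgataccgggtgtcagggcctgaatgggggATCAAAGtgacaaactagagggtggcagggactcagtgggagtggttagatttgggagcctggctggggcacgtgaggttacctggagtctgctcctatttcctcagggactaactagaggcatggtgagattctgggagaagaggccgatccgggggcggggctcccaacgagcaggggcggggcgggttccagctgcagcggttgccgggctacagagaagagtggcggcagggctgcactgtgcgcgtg
Rnf43, first start: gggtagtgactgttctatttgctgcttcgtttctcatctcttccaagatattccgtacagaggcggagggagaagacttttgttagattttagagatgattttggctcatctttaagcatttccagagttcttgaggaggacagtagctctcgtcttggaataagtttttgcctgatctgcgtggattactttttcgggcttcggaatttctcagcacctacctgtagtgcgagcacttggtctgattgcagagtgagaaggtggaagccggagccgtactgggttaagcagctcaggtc
Rnf43, second start: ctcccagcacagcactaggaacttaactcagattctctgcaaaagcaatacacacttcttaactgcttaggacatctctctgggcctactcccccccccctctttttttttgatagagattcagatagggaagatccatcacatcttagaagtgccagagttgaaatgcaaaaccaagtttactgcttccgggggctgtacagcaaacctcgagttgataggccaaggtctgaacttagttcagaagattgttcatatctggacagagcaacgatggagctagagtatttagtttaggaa

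**Figure D1:**
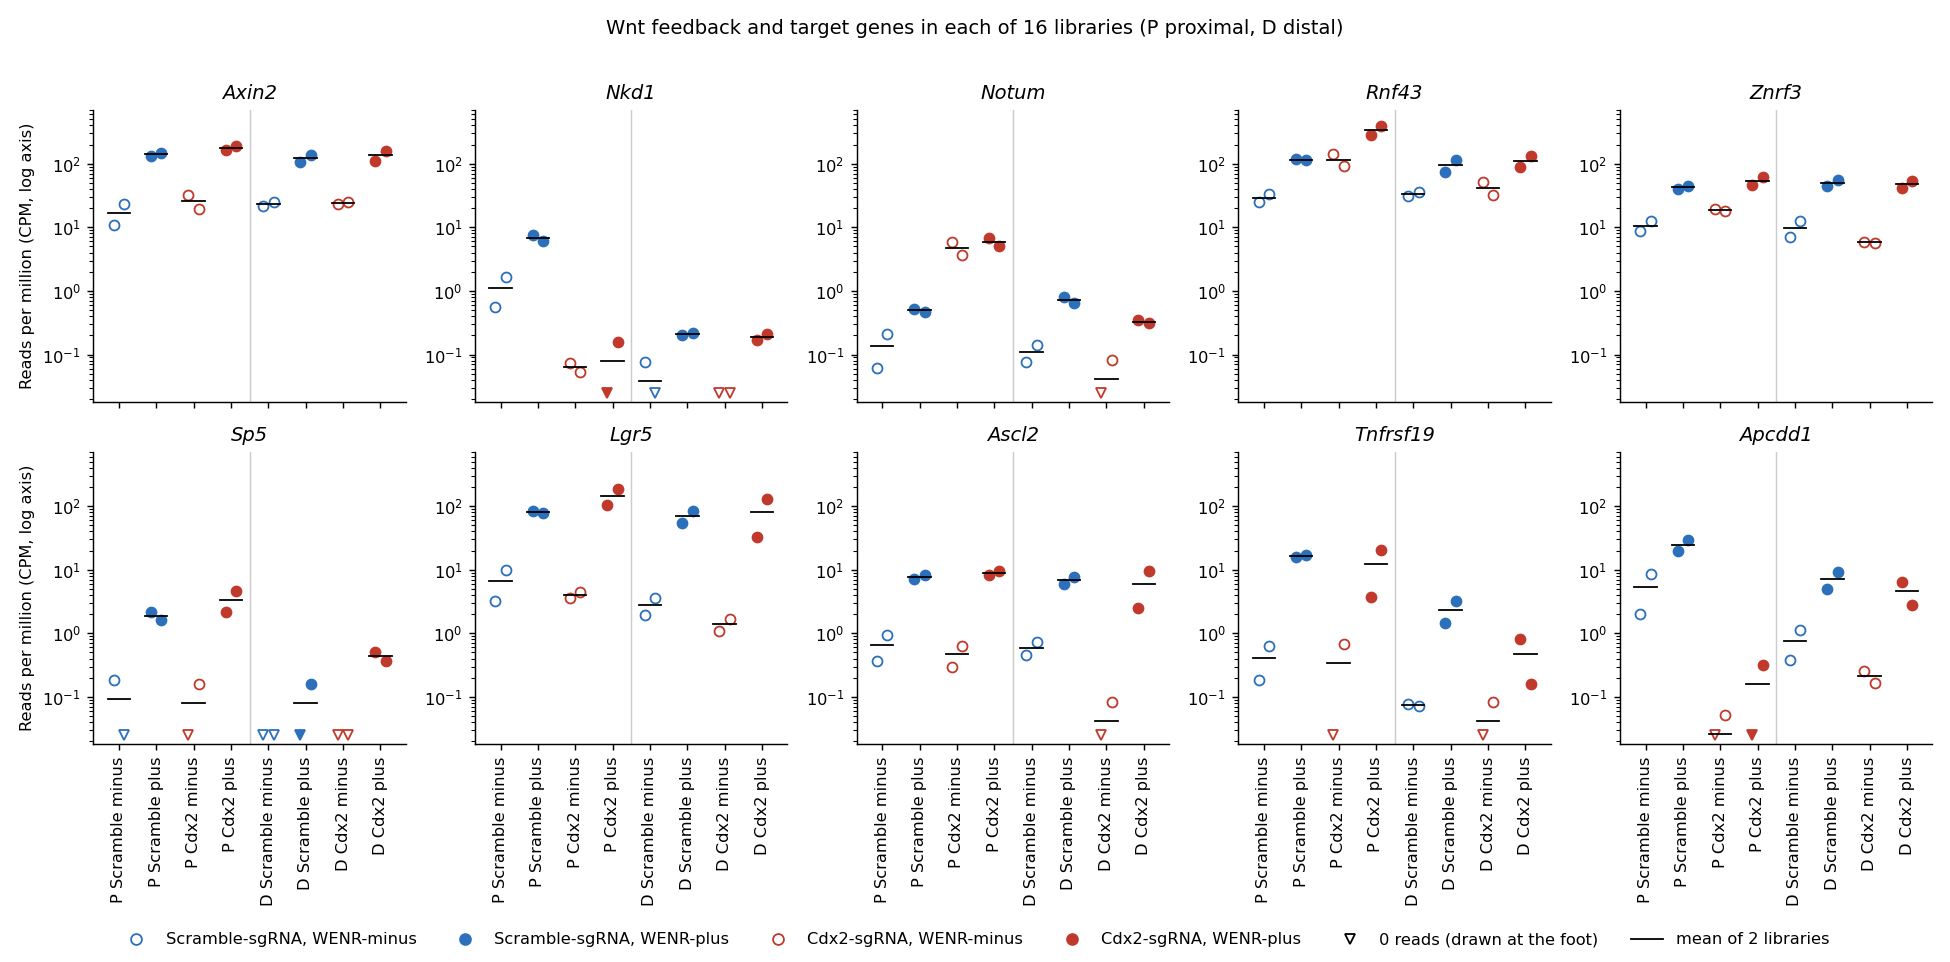
Levels of the 10 genes in each of the 16 libraries, as CPM on a log vertical axis with 1 panel per gene and the 8 groups along the horizontal axis; each circle is a library (open without and filled with the factors, blue for Scramble-sgRNA and red for Cdx2-sgRNA), lines are means of 2 libraries, and triangles at the foot are libraries with 0 reads. Axin2 and Lgr5 separate the media in every group (Axin2 at least 106 CPM in WENR-plus and at most 31.7 CPM in WENR-minus libraries), Notum stands high in both media in proximal Cdx2-sgRNA organoids, and Apcdd1 and Nkd1 are near 0 there.

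The first comparison asked how far each gene depended on the supplied factors. In proximal Scramble-sgRNA organoids 8 of the 10 genes were higher with the factors (WENR-plus) than without them (WENR-minus) and 0 were lower, where 8.24% of the 15289 genes tested were higher and 8.73% lower. Proximal Cdx2-sgRNA organoids had 7 higher and 0 lower, beside 2.98% and 3.42% of all genes. In distal Scramble-sgRNA organoids 8 were higher and 0 lower, beside 14.2% and 12.2%, and in distal Cdx2-sgRNA organoids 7 were higher and 0 lower, beside 18.1% and 14.9%. The members' share called higher was above that of all genes in each of the 4 settings. A gene counted as higher or lower at a Benjamini-Hochberg adjusted p under 0.05 over all genes tested and a log2 fold change beyond 1, by edgeR's quasi-likelihood test, and each fold change is given on the log2 scale ± its standard error with 2 libraries in each group. Where a group held a few reads at most, the ratio of pooled reads is given with an exact interval for counting error only. The median log2 fold change of the 10 genes was 2.83, 2.48, 2.91 and 3.84 in these 4 settings, against 0.06, 0.03, 0.11 and 0.10 for all genes. With genes of too few reads set at the ratio of their pooled reads or left out, the members' medians were 2.83, 2.78, 2.70 and 3.02. Of the 10 genes, 5 passed in all 4 settings: Axin2, Rnf43, Znrf3, Lgr5 and Ascl2.

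**Figure D2:**
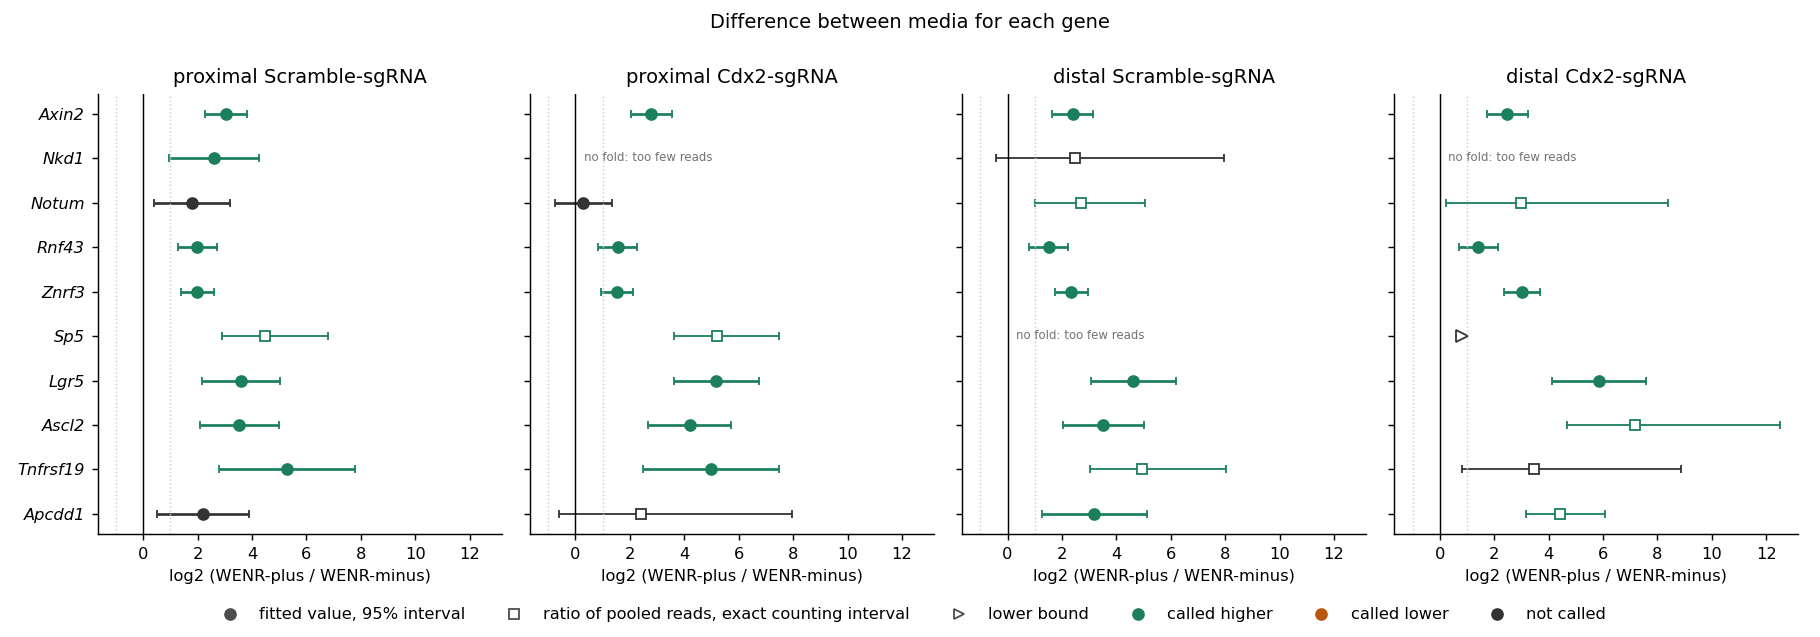
Log2 fold change of each gene between media (WENR-plus over WENR-minus, horizontal axis) in the 4 combinations of region and guide; circles are fitted values and open squares ratios of pooled reads, bars are 95% intervals (for squares, of counting error only), the triangle is a lower bound, and green marks genes that passed the test as higher. Genes with too few reads carry no point. Lgr5 and Ascl2 lie far to the right in every panel, and Notum is near 0 in proximal Cdx2-sgRNA organoids.

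Axin2, a scaffold of the destruction complex and a widely used reporter of the pathway, separated the media without exception. In proximal Scramble-sgRNA organoids it gave 131 and 149 CPM with the factors and 10.8 and 23.1 CPM without them. Proximal Cdx2-sgRNA organoids gave 164 and 186 against 31.7 and 19.3 CPM. The distal values were 106 and 139 against 21.2 and 25.3 CPM with Scramble-sgRNA and 112 and 158 against 23.6 and 24.7 CPM with Cdx2-sgRNA. The 8 WENR-plus libraries all lay above the 8 WENR-minus libraries, whatever the region or guide. The log2 fold change was 3.04 ± 0.35 (adjusted p = 0.00028) and 2.78 ± 0.34 (adjusted p = 0.00127) in the proximal pair of comparisons, and 2.39 ± 0.34 (adjusted p = 0.000306) and 2.48 ± 0.34 (adjusted p = 0.000137) in the distal pair. Without proximal Scramble-sgRNA WENR-minus replicate 2 the first of these was 3.63. Axin2 did not pass the test between guides: in proximal organoids the Cdx2-sgRNA minus Scramble-sgRNA difference was 0.32 (95% interval -0.38 to 1.02, adjusted p = 0.499) in WENR-plus medium and 0.58 (95% interval -0.14 to 1.31, adjusted p = 0.205) in WENR-minus medium. These intervals still allow differences beyond a log2 of 1, and without proximal Scramble-sgRNA WENR-minus replicate 2 the latter was 1.22 and passed the test (adjusted p = 0.0216).

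Nkd1, which binds Dishevelled and damps the pathway, had nearly all its reads in proximal Scramble-sgRNA organoids. Proximal Scramble-sgRNA organoids held 159 and 104 reads in WENR-plus and 9 and 32 reads in WENR-minus libraries. No other library held more than 4 reads: proximal Cdx2-sgRNA organoids had 0 and 3 in WENR-plus and 1 and 1 in WENR-minus medium, distal Scramble-sgRNA organoids 4 and 4 against 1 and 0, and distal Cdx2-sgRNA organoids 3 and 4 against 0 and 0. In proximal Scramble-sgRNA organoids the medium effect was 2.61 ± 0.75 (adjusted p = 0.0249), which no longer passed without WENR-minus replicate 1 (adjusted p = 0.166), WENR-plus replicate 1 (0.118) or WENR-plus replicate 2 (0.0805), and was 3.54 without WENR-minus replicate 2. With Cdx2-sgRNA the pooled reads of proximal organoids were lower by a ratio of 83.8 (95% counting interval 28.4 to 409, adjusted p = 0.00136) in WENR-plus medium, where 3 reads stood against 263. In WENR-minus medium, with 2 reads against 41, the ratio was 18.8 (95% counting interval 4.88 to 160.4, adjusted p = 0.0124), and this call was lost without Cdx2-sgRNA replicate 2 (adjusted p = 0.0871) or Scramble-sgRNA replicate 2 (0.0789), and with counts rescaled by transcript length (length-scaled counts, 0.0526).

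Notum, a secreted enzyme that removes the lipid from Wnt ligands and so inactivates them, departed from the rest of the group in proximal Cdx2-sgRNA organoids. There it gave 116 and 95 reads in WENR-plus and 80 and 69 reads in WENR-minus libraries. The other 12 libraries held 0 to 16 reads: 11 and 8 with the factors and 1 and 4 without in proximal Scramble-sgRNA, 16 and 12 against 1 and 2 in distal Scramble-sgRNA, and 6 and 6 against 0 and 1 in distal Cdx2-sgRNA organoids. The 4 proximal Cdx2-sgRNA libraries therefore lay above all others, in either medium. The Cdx2-sgRNA minus Scramble-sgRNA difference in proximal organoids was 3.53 ± 0.55 (adjusted p = 0.00106) in WENR-plus and 5.03 ± 0.63 (adjusted p = 0.000161) in WENR-minus medium, the latter 6.09 without Scramble-sgRNA WENR-minus replicate 2. Its medium effect there was 0.30 (95% interval -0.75 to 1.35, adjusted p = 0.752). In distal organoids Notum was higher with the factors, by a ratio of 6.52 (95% counting interval 2.01 to 33.5, adjusted p = 0.00977) with Scramble-sgRNA (28 reads against 3) and 7.85 (95% counting interval 1.16 to 336, adjusted p = 0.0225) with Cdx2-sgRNA (12 reads against 1). Both distal calls rested on few reads: the first was lost without WENR-minus replicate 1 (adjusted p = 0.0802), the second without WENR-minus replicate 1 (0.204), WENR-plus replicate 1 (0.0668) or WENR-plus replicate 2 (0.0577). With all libraries kept, the second was also lost with DESeq2 (adjusted p = 0.126), without the filter on low counts (0.0568) and with length-scaled counts (0.0640). In proximal Scramble-sgRNA organoids the difference was 1.79 ± 0.64 (adjusted p = 0.0562) and did not pass, but was 2.81 (adjusted p = 0.0462) without WENR-minus replicate 2.

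Rnf43 and Znrf3 are membrane ubiquitin ligases that clear Frizzled receptors from the cell surface. Rnf43 gave 118 and 113 CPM in WENR-plus and 24.8 and 33.3 CPM in WENR-minus medium in proximal Scramble-sgRNA organoids. With Cdx2-sgRNA the proximal values were 280.1 and 398 CPM against 141 and 90.5 CPM. Distal organoids gave 72.9 and 115 against 30.5 and 35.4 CPM with Scramble-sgRNA and 89.4 and 133 against 51.0 and 32.6 CPM with Cdx2-sgRNA. Within each region and guide the media did not overlap, yet proximal Cdx2-sgRNA organoids without the factors reached the range of the Scramble-sgRNA organoids with them. Across media the log2 fold change was 1.99 ± 0.33 (adjusted p = 0.00147) in proximal Scramble-sgRNA and 1.55 ± 0.32 (adjusted p = 0.0113) in proximal Cdx2-sgRNA organoids. The distal values were 1.51 ± 0.33 (adjusted p = 0.00345) and 1.41 ± 0.32 (adjusted p = 0.00382). The proximal Cdx2-sgRNA call was lost without WENR-plus replicate 2 (1.27, adjusted p = 0.0855) or WENR-minus replicate 2 (1.26, 0.0752), and the distal Cdx2-sgRNA call without WENR-minus replicate 2 (1.07, 0.0504). The Cdx2-sgRNA minus Scramble-sgRNA difference in proximal organoids was 1.56 ± 0.32 (adjusted p = 0.00541) in WENR-plus and 1.99 ± 0.33 (adjusted p = 0.000997) in WENR-minus medium, and passed whichever library was left out.

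Znrf3 followed the medium as Axin2 did. Proximal Scramble-sgRNA organoids gave 39.4 and 45.2 CPM with the factors and 8.86 and 12.4 CPM without, and proximal Cdx2-sgRNA organoids 46.5 and 61.4 against 19.4 and 17.9 CPM. The distal values were 45.1 and 55.1 against 6.93 and 12.7 CPM with Scramble-sgRNA and 41.0 and 53.4 against 5.92 and 5.69 CPM with Cdx2-sgRNA. All 8 WENR-plus libraries, at 39.4 CPM or more, lay above all WENR-minus libraries, at 19.4 CPM or less. The log2 fold change was 1.99 ± 0.28 (adjusted p = 0.000694) and 1.53 ± 0.27 (adjusted p = 0.00582) in proximal and 2.35 ± 0.28 (adjusted p = 0.000124) and 3.02 ± 0.29 (adjusted p = 1.73e-05) in distal organoids, Scramble-sgRNA first. Without proximal Cdx2-sgRNA WENR-plus replicate 2 the second was 1.31 and missed the test (adjusted p = 0.0516). In WENR-minus medium Znrf3 was higher with Cdx2-sgRNA in proximal organoids by 0.81 ± 0.27 (adjusted p = 0.0423), which is below the fold threshold, and the distal difference was -0.76 ± 0.29 (adjusted p = 0.124). Leaving out a library moved both across the thresholds: the proximal value was 1.06 (adjusted p = 0.0484) without Scramble-sgRNA WENR-minus replicate 2, and the distal value -1.13 (0.0428) without Scramble-sgRNA WENR-minus replicate 1.

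Sp5 and Ascl2 are transcription factors, Sp5 a zinc finger protein that tempers the Wnt response and Ascl2 a basic helix-loop-helix factor needed by intestinal stem cells. Sp5 had at most 3 reads in any WENR-minus library. Proximal Scramble-sgRNA organoids held 45 and 27 reads in WENR-plus and 3 and 0 in WENR-minus medium, and proximal Cdx2-sgRNA organoids 37 and 86 against 0 and 3. Distal Scramble-sgRNA organoids held 0 and 3 reads with and 0 and 0 without the factors, and distal Cdx2-sgRNA organoids 9 and 7 against 0 and 0. The proximal WENR-plus libraries were thus the highest of the 16 with either guide. Pooled reads were higher with the factors by a ratio of 22.4 (95% counting interval 7.37 to 111, adjusted p = 0.0302) in proximal Scramble-sgRNA (72 reads against 3) and 36.7 (95% counting interval 12.3 to 180.5, adjusted p = 0.0300) in proximal Cdx2-sgRNA organoids (123 against 3). The distal Cdx2-sgRNA ratio was at least 1.76-fold against a floor of 3 reads per library, with an adjusted p of 0.0512. Both proximal calls were fragile: the Scramble-sgRNA one was lost without WENR-minus replicate 2 (adjusted p = 0.144), WENR-plus replicate 1 (0.108) or WENR-plus replicate 2 (0.0802). The Cdx2-sgRNA one was lost without WENR-minus replicate 1 (0.124), WENR-minus replicate 2 (0.0661) or WENR-plus replicate 2 (0.125).

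Ascl2 gave 7.26 and 8.28 CPM with the factors against 0.372 and 0.938 CPM without them in proximal Scramble-sgRNA organoids. In proximal Cdx2-sgRNA organoids it gave 8.18 and 9.62 against 0.297 and 0.635 CPM, and the media lay apart with either guide. Distal organoids gave 6.01 and 7.64 against 0.462 and 0.717 CPM with Scramble-sgRNA. With Cdx2-sgRNA they gave 2.52 and 9.42 against 0 and 0.0836 CPM, the distal Cdx2-sgRNA WENR-minus libraries holding 0 and 1 reads. The 8 libraries with the factors again lay above the 8 without. The log2 fold change was 3.53 ± 0.66 (adjusted p = 0.00267) and 4.19 ± 0.69 (adjusted p = 0.00432) in proximal organoids with Scramble-sgRNA and Cdx2-sgRNA, and 3.51 ± 0.68 (adjusted p = 0.00178) in distal Scramble-sgRNA organoids. Without WENR-minus replicate 2 the proximal values were 4.30 and 4.87. In distal Cdx2-sgRNA organoids, with 222 reads against 1, the ratio was 145 (95% counting interval 25.8 to 5760.5, adjusted p = 0.000158), a value that the single read makes very uncertain. Ascl2 in WENR-minus medium was lower with Cdx2-sgRNA in distal organoids by a ratio of 14.1 (95% counting interval 2.19 to 592, adjusted p = 0.0738), 1 read against 16, which did not pass without the replicate block and passed with the replicate number as a block (-3.61 ± 0.92, adjusted p = 0.0310).

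Lgr5, the R-spondin receptor that marks crypt base stem cells, showed the widest swing among the abundant genes. In proximal organoids it gave 83.9 and 76.6 CPM with the factors and 3.22 and 10.1 CPM without in Scramble-sgRNA, and 105 and 187 against 3.56 and 4.44 CPM in Cdx2-sgRNA organoids. In distal organoids it gave 54.6 and 82.4 against 1.92 and 3.58 CPM with Scramble-sgRNA and 33.1 and 129 against 1.1 and 1.67 CPM with Cdx2-sgRNA. The media never overlapped, but replicates with the factors could differ widely, as the distal Cdx2-sgRNA pair shows. The log2 fold change was 3.58 ± 0.66 (adjusted p = 0.00243) and 5.18 ± 0.71 (adjusted p = 0.00192) in proximal and 4.63 ± 0.71 (adjusted p = 0.000478) and 5.86 ± 0.78 (adjusted p = 0.000112) in distal organoids, Scramble-sgRNA first. The proximal Scramble-sgRNA value was 2.98 without WENR-minus replicate 1 and 4.57 without WENR-minus replicate 2. The distal Cdx2-sgRNA value was 4.54 without WENR-plus replicate 2 and 6.46 without WENR-plus replicate 1. The Cdx2-sgRNA minus Scramble-sgRNA difference was 0.87 (95% interval -0.41 to 2.14, adjusted p = 0.307) in proximal WENR-plus and -0.73 (95% interval -2.17 to 0.70, adjusted p = 0.422) in proximal WENR-minus medium. Neither passed the test, and both intervals were wide enough to hold a change of several fold.

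Tnfrsf19, also called Troy, is a receptor of the tumour necrosis factor family that sits in crypt stem cells, and its highest read numbers were proximal. Proximal Scramble-sgRNA organoids held 332 and 285 reads with the factors and 3 and 12 without. Proximal Cdx2-sgRNA organoids held 63 and 388 against 0 and 13, so that the replicates with the factors differed by several fold. Distal organoids held 29 and 59 against 1 and 1 reads with Scramble-sgRNA and 14 and 3 against 0 and 1 with Cdx2-sgRNA. The medium effect was 5.28 ± 1.14 (adjusted p = 0.00573) and 4.99 ± 1.14 (adjusted p = 0.0164) in proximal Scramble-sgRNA and Cdx2-sgRNA organoids. The first was 4.67 and no longer passed without WENR-minus replicate 1 (adjusted p = 0.0633), and 6.34 without WENR-minus replicate 2. The second was lost without WENR-minus replicate 1 (4.10, adjusted p = 0.0691) or WENR-plus replicate 2 (3.26, 0.122), and was 5.73 without WENR-plus replicate 1. Without WENR-minus replicate 2, which leaves 0 reads in that group, its adjusted p was 0.0254. In distal Scramble-sgRNA organoids the ratio was 30.7 (95% counting interval 8.26 to 258, adjusted p = 0.0200), 88 reads against 2, lost without WENR-minus replicate 1 (adjusted p = 0.106), WENR-minus replicate 2 (0.103) or WENR-plus replicate 2 (0.100). With Cdx2-sgRNA, 17 distal reads against 1 gave 11.1 (95% counting interval 1.74 to 465, adjusted p = 0.175), which did not pass.

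Apcdd1, a membrane glycoprotein that binds Wnt and its receptors and inhibits the signal, was nearly absent from proximal Cdx2-sgRNA organoids. Proximal Scramble-sgRNA organoids held 409 and 494 reads in WENR-plus and 33 and 164 in WENR-minus libraries, whereas proximal Cdx2-sgRNA organoids held 0 and 6 against 0 and 1. Distal organoids held 99 and 173 against 5 and 16 reads with Scramble-sgRNA and 112 and 52 against 3 and 2 with Cdx2-sgRNA. The 4 proximal Cdx2-sgRNA libraries did not overlap the 4 proximal Scramble-sgRNA libraries. The Cdx2-sgRNA minus Scramble-sgRNA difference in proximal organoids was -7.15 ± 1.06 (adjusted p = 0.00081) in WENR-plus medium, and -6.24 without Cdx2-sgRNA replicate 1. Without Cdx2-sgRNA replicate 2 the group held 0 reads and the adjusted p was 0.00297. In WENR-minus medium, 1 read against 197, the ratio was 181 (95% counting interval 32.0 to 7168, adjusted p = 0.00187), and it passed whichever library was left out. In distal organoids Apcdd1 was higher with the factors, by 3.19 ± 0.87 (adjusted p = 0.0128) with Scramble-sgRNA and by a ratio of 21.5 (95% counting interval 9.01 to 66.9, adjusted p = 0.00491) with Cdx2-sgRNA (164 reads against 5). The former was lost without WENR-minus replicate 1 (2.63, adjusted p = 0.106) or WENR-plus replicate 2 (2.58, 0.0826), and was 4.19 without WENR-minus replicate 2. The proximal Scramble-sgRNA medium effect was 2.20 ± 0.77 (adjusted p = 0.0518) and did not pass, but did so with the replicate number as a block (2.36, adjusted p = 0.0236), with a block for each culture (2.43, adjusted p = 0.000839) or without WENR-minus replicate 2 (3.51, 0.0277).

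The second comparison, called the Cdx2 effect, set Cdx2-sgRNA against Scramble-sgRNA organoids within a region and medium. In proximal organoids 2 of the 10 genes were higher and 2 lower with Cdx2-sgRNA in each medium. The background was 9.04% of all genes higher and 12.1% lower in WENR-minus medium, and 6.93% and 8.94% in WENR-plus medium. The 2 calls among 10 genes in a direction lay above these shares, but are too few to be read as a result about the group. The same 4 genes were named in each medium (Notum and Rnf43 higher, Nkd1 and Apcdd1 lower). Their scale differed, as the values above show: Rnf43 moved by about its own medium effect, whereas Nkd1 and Apcdd1 fell to a few reads. Markers moved with the guide in proximal organoids, and in distal organoids in WENR-minus medium as given below. The summed proliferation markers were lower with Cdx2-sgRNA in WENR-plus medium (786 to 993 against 1722 to 1933 CPM) and higher in WENR-minus medium (860 to 950 against 375 to 683 CPM). Differentiation markers were lower in both, at 153 to 251 against 459 to 634 CPM in WENR-plus and 548 to 1604 against 9391 to 12376 CPM in WENR-minus medium. The sum of the 10 mesenchymal markers was lower as well, at 0.582 to 0.754 against 3.31 to 11.7 CPM in WENR-plus and 0.635 to 1.26 against 6.62 to 18.8 CPM in WENR-minus medium. Dcn and Lum were at 0 in all libraries, and Vim and Pdgfrb reached the highest values of that list. The sum of the 8 stomach markers was higher, at 0.580 to 19.0 against 0 to 0.191 CPM in WENR-plus and 0.742 to 5.18 against 0.0521 to 0.248 CPM in WENR-minus medium. It rested on few genes. With Cdx2-sgRNA 6 of the 8 had 0 reads in both WENR-plus libraries and 4 in both WENR-minus libraries. With Scramble-sgRNA 6 had 0 reads in both libraries of each medium. The part of these shifts in the results was not tested.

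In distal organoids the edgeR test called 0 of the 10 genes in either medium. In WENR-minus medium 5.25% of all genes were called, 2 of the 10 had an unadjusted p under 0.05, and DESeq2 called 0. In WENR-plus medium 0.262% of all genes were called, 0 of the 10 had an unadjusted p under 0.05, and DESeq2 called 0. Markers moved with the guide in distal WENR-minus medium as well. Proliferation markers summed to 234 to 341 CPM with Cdx2-sgRNA against 460 to 654 CPM. Differentiation markers summed to 18575 to 22396 against 9478 to 16740 CPM, and mesenchymal markers to 5.16 to 5.52 against 12.3 to 12.5 CPM. In distal WENR-plus medium these sums overlapped between guides. The part of these distal shifts was not tested.

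**Figure D3:**
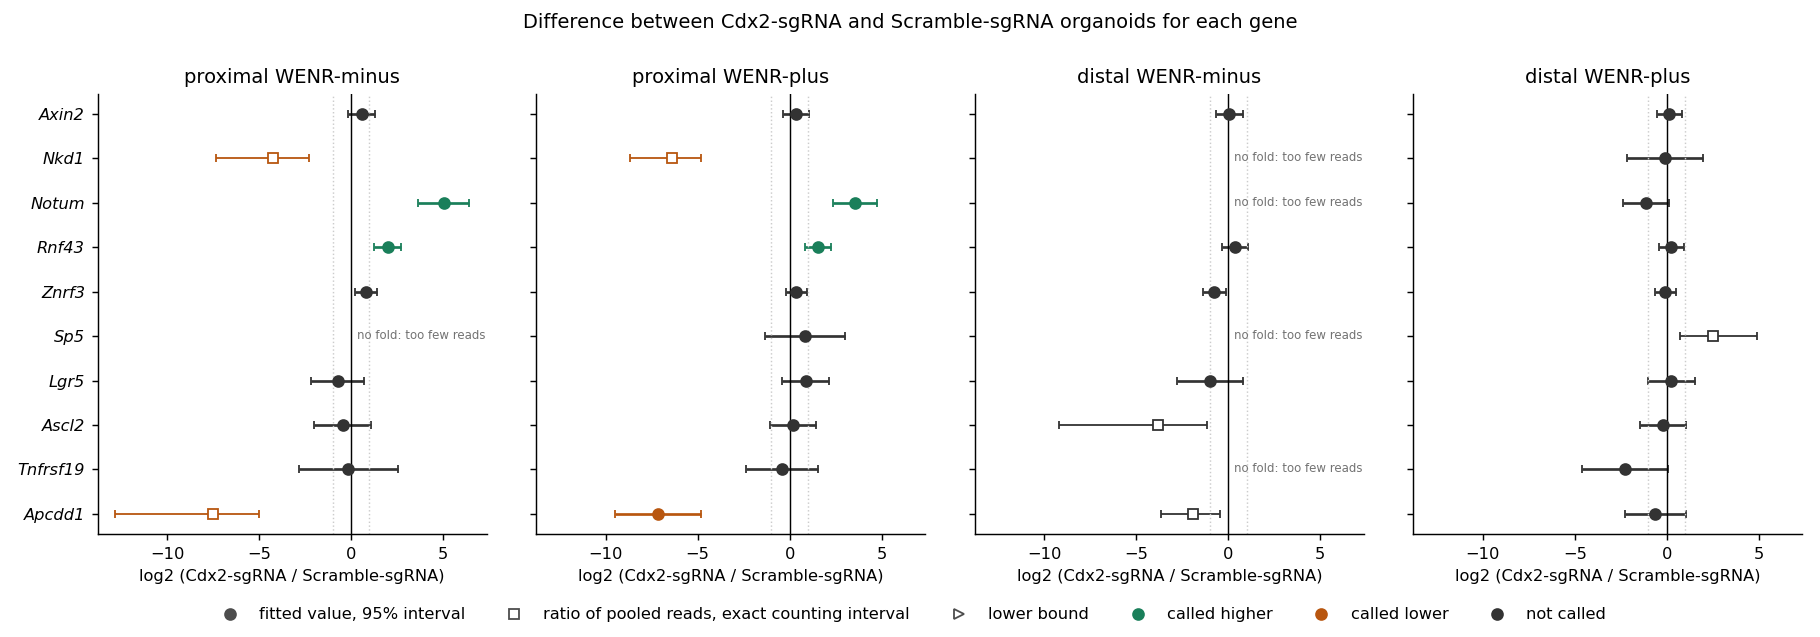
Log2 fold change of each gene between guides (Cdx2-sgRNA over Scramble-sgRNA, horizontal axis) in the 4 combinations of region and medium; circles are fitted values, open squares ratios of pooled reads and bars their 95% intervals, green and orange mark genes that passed as higher and lower, and genes with too few reads carry no point. Notum and Rnf43 lie to the right and Nkd1 and Apcdd1 to the left in both proximal panels, and no gene passed in the distal panels.

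Whether the difference between guides was itself different between the regions was tested as an interaction. In WENR-minus medium 3 of the 10 genes had a larger difference in proximal than in distal organoids, beside 5.17% of all genes. Rnf43 differed by 1.65 ± 0.46 (adjusted p = 0.0301) and Znrf3 by 1.57 ± 0.40 (adjusted p = 0.0208), and Notum passed with an adjusted p of 0.00655, for which no fold is given because its distal groups held at most 2 reads per library. The Notum call was lost without distal Scramble-sgRNA replicate 2 (adjusted p = 0.131). The Rnf43 call was lost without proximal Scramble-sgRNA replicate 1 (0.103), proximal Cdx2-sgRNA replicate 1 (0.0819), either distal Scramble-sgRNA replicate (0.0508 and 0.102) or distal Cdx2-sgRNA replicate 2 (0.0968). The Znrf3 call was lost without proximal Scramble-sgRNA replicate 1 (0.0747), distal Scramble-sgRNA replicate 2 (0.0986) or either distal Cdx2-sgRNA replicate (0.0593 and 0.0608). In WENR-plus medium 1 gene was higher, beside 1.22% of all genes, and 2 were lower, beside 3.76%. Notum differed by 4.65 ± 0.78 (adjusted p = 0.00604) and passed whichever library was left out. Apcdd1 differed by -6.52 ± 1.28 (adjusted p = 0.0131), lost without distal Scramble-sgRNA replicate 1 (adjusted p = 0.0507) or distal Cdx2-sgRNA replicate 1 (0.0530). Nkd1 passed at an adjusted p of 0.0267, lost without any of 6 of the 8 libraries (0.0677 to 0.0895) and kept without either proximal Cdx2-sgRNA replicate. With length-scaled counts it was lost as well (adjusted p = 0.0673). Distal Nkd1 held at most 4 reads per library with either guide and had little room to fall. Its call therefore does not show that the regions responded differently.

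The medium effect differed between regions for 1 gene with Cdx2-sgRNA: that of Znrf3 was smaller in proximal than in distal organoids, with a difference of -1.49 ± 0.39 (adjusted p = 0.0182), beside 9.86% of all genes with a lower value. It was lost without distal Cdx2-sgRNA WENR-minus replicate 1 (adjusted p = 0.0515) or replicate 2 (0.0674), distal Cdx2-sgRNA WENR-plus replicate 2 (0.0777) or proximal Cdx2-sgRNA WENR-plus replicate 1 (0.0633). With Scramble-sgRNA the edgeR test called 0 of the 10 genes for a region difference in the medium effect, beside 0.0719% of all genes, with 0 at an unadjusted p under 0.05 and 0 by DESeq2. Between guides it called 0 in proximal organoids, beside 3.6% of all genes, with 0 at an unadjusted p under 0.05 and 0 by DESeq2. In distal organoids it called 0, beside 0% of all genes, with 1 at an unadjusted p under 0.05 and 0 by DESeq2.

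The third comparison set proximal against distal organoids. With Scramble-sgRNA, 1 gene was higher in proximal organoids in each medium, namely Nkd1, beside 2.88% of all genes for WENR-minus and 0.68% for WENR-plus. Its ratio in WENR-minus medium was 31.3 (95% counting interval 5.31 to 1265, adjusted p = 0.0266), 41 reads against 1, and its log2 fold change in WENR-plus medium 5.00 ± 0.87 (adjusted p = 0.0173). The WENR-minus call was lost without distal replicate 1 (adjusted p = 0.0691), distal replicate 2 (0.159) or proximal replicate 2 (0.162), and the WENR-plus call without any 1 of its 4 libraries (0.0821 to 0.132). Both were lost with length-scaled counts (adjusted p = 0.101 and 0.0545). Tnfrsf19 in WENR-plus medium differed by 2.82 ± 0.97 (adjusted p = 0.195) and did not pass, and Apcdd1 in WENR-minus medium by 2.77 ± 0.87 (adjusted p = 0.0672), which passed with the replicate number as a block (2.69, adjusted p = 0.0484).

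With Cdx2-sgRNA in WENR-minus medium 4 genes were higher in proximal organoids, beside 18.1% of all genes. Rnf43 was higher by 1.47 ± 0.32 (adjusted p = 0.00327) and Znrf3 by 1.68 ± 0.29 (adjusted p = 0.000663). Pooled reads of Notum gave a ratio of 109 (95% counting interval 19.3 to 4349.9, adjusted p = 5.38e-05), 149 against 1, and those of Ascl2 11.7 (95% counting interval 1.83 to 493, adjusted p = 0.0365), 16 against 1. The Ascl2 call was lost without proximal replicate 2 (adjusted p = 0.197), distal replicate 1 (0.185) or distal replicate 2 (0.0553), and with all libraries kept it was lost with DESeq2 (0.0603). Lgr5 differed by 1.53 ± 0.78 (adjusted p = 0.126) and passed with the replicate number as a block (1.55, adjusted p = 0.0357). In WENR-plus medium 3 genes were higher in proximal organoids, beside 7.4% of all genes, and 1 was lower, beside 9.57%. Those higher were Notum at 4.12 ± 0.57 (adjusted p = 0.000501), Rnf43 at 1.61 ± 0.32 (adjusted p = 0.00415) and Tnfrsf19 at 4.65 ± 1.11 (adjusted p = 0.00976). The lower one was Apcdd1 at -4.74 ± 1.02 (adjusted p = 0.00598), which was -3.83 without proximal replicate 1 and -3.96 without distal replicate 1. Without proximal replicate 2, which leaves 0 reads in that group, its adjusted p was 0.0121. The Tnfrsf19 call was lost without proximal replicate 2 (2.92, adjusted p = 0.0870) or distal replicate 2 (3.92, 0.0755), and was 6.24 without distal and 5.40 without proximal replicate 1.

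Ordered by mean CPM, the 8 groups fell into a shared pattern with exceptions. For Axin2, Znrf3, Lgr5 and Ascl2 the 4 WENR-plus groups held the first 4 places, most neighbours overlapping among themselves, and a gap without overlap set them off from the 4 WENR-minus groups. For Axin2 the order ran from proximal Cdx2-sgRNA WENR-plus organoids (mean 175 CPM) to proximal Scramble-sgRNA WENR-minus organoids (16.9 CPM). For Rnf43 the second place went to proximal Cdx2-sgRNA WENR-minus organoids (115.9 CPM), which overlapped the proximal Scramble-sgRNA WENR-plus group (115.1 CPM). Notum had both proximal Cdx2-sgRNA groups in front (5.88 and 4.79 CPM, overlapping), and Apcdd1 had both at the end (0.159 and 0.0264 CPM, overlapping). Nkd1 had both proximal Scramble-sgRNA groups in front (6.88 and 1.11 CPM, not overlapping).

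The second Rnf43 start, the last of the windows printed, is that of the transcript Rnf43-201. Salmon assigned it 200 and 268 reads in the 2 proximal Cdx2-sgRNA WENR-plus libraries, 4.14% and 3.57% of the gene's reads, and 0 to 33 reads, at most 1.55%, in the other 14 libraries. Nearly all other reads of the gene went to a retained-intron transcript, Rnf43-206 (52.3%), and to the coding transcript Rnf43-209 (42.7%). The split is uncertain: Rnf43-202 received 321 reads in proximal Scramble-sgRNA WENR-plus replicate 1 and 187 in distal Cdx2-sgRNA WENR-plus replicate 2, and 0 in all others. For Lgr5, the retained-intron transcript Lgr5-202 took 240 and 438 reads in the proximal Cdx2-sgRNA WENR-plus libraries, 13.2% and 12.4% of the gene's reads, against 3.45% to 6.70% in the other 6 WENR-plus libraries and up to 14.6% over all 14 others. These transcripts were chosen after their values were seen, and no test was made on them.

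**Figure D4:**
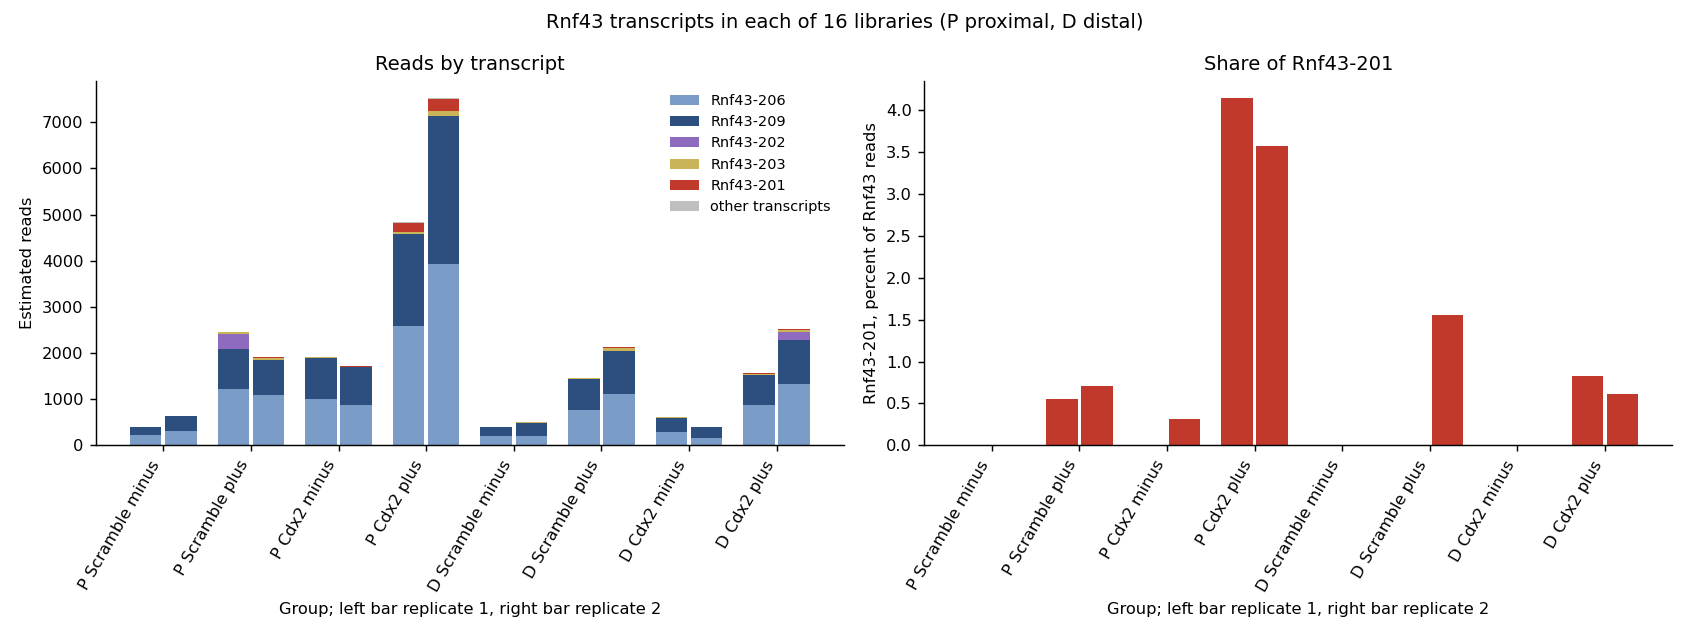
Reads that Salmon assigned to each Rnf43 transcript (left, stacked bars, estimated reads) and the share of Rnf43-201, the transcript of the second start, in the gene's reads (right, percent), with 1 bar per library and the 8 groups along the horizontal axis. Rnf43-206 and Rnf43-209 fill most of every bar on the left, and on the right the 2 proximal Cdx2-sgRNA WENR-plus libraries stand at 4.14% and 3.57% and no other library exceeds 1.55%.

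On GRCm38, in the GENCODE gene models used here, 4 of the 10 genes lie on chromosome 11: Axin2 at chr11:108920349-108950783 (plus strand), Notum at chr11:120653788-120661175 (minus strand), Rnf43 at chr11:87662722-87735539 (plus strand) and Znrf3 at chr11:5276324-5444847 (minus strand). The others are Nkd1 at chr8:88521354-88594884 (plus strand), Sp5 at chr2:70474923-70477729 (plus strand), Lgr5 at chr10:115450311-115587780 (minus strand), Ascl2 at chr7:142966829-142969264 (minus strand), Tnfrsf19 at chr14:60963875-61046490 (minus strand) and Apcdd1 at chr18:62922231-62961179 (plus strand). All reads of the gene's transcripts, exonic and of retained introns, entered these values. Rnf43 contains a sense intronic gene, 1110028F11Rik, with at most 95 reads in a library, and Notum lies opposite the antisense gene Notumos with at most 7. The genes that overlap the other members had at most 2 reads in a library.

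Other genes of the pathway were described by 4 lists. Of 16 Wnt receptors and co-receptors tested, 1, 0, 2 and 2 were higher and 1, 2, 2 and 4 lower with the factors in proximal Scramble-sgRNA, proximal Cdx2-sgRNA, distal Scramble-sgRNA and distal Cdx2-sgRNA organoids. Of all genes, 8.24%, 2.98%, 14.2% and 18.1% were higher and 8.73%, 3.42%, 12.2% and 14.9% lower in that order. The counts of receptors called higher lay near or under these shares. Those called lower lay near them with Scramble-sgRNA and above them with Cdx2-sgRNA in both regions. Fzd5, a Wnt receptor of the gut epithelium, moved against the 10 genes in all 4: its log2 fold change was -2.24, -2.02, -1.26 and -1.53 in that order. Lgr4, the relative of Lgr5 that is widespread in epithelia, had -1.07, -1.04 and -1.62 in all but proximal Scramble-sgRNA organoids, where it did not pass. Fzd6 was higher in proximal Scramble-sgRNA (1.33), distal Scramble-sgRNA (1.50) and distal Cdx2-sgRNA organoids (1.36). Between guides the edgeR test called 4, 6, 2 and 0 of the 16 receptors in proximal WENR-minus, proximal WENR-plus, distal WENR-minus and distal WENR-plus. The proximal shares of all genes were 9.04% higher and 12.1% lower, then 6.93% and 8.94%. The distal shares were 5.25% and 0.262% in either direction. In distal WENR-plus medium 4 of the 16 had an unadjusted p under 0.05 and DESeq2 called 1. In proximal Cdx2-sgRNA organoids Fzd10 was at 0 CPM in both media, against means of 1.69 CPM in WENR-minus and 6.90 CPM in WENR-plus medium with Scramble-sgRNA, and Fzd4 was higher with Cdx2-sgRNA by 3.26 and 2.17 in WENR-minus and WENR-plus medium.

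Of 16 genes of the destruction complex and relay, 1, 0, 1 and 1 were higher and 0, 1, 1 and 2 lower with the factors. These counts were under the shares of all genes just given, apart from the 1 lower in proximal Cdx2-sgRNA organoids. Ctnnb1, which encodes beta-catenin, had log2 fold changes of -1.73, -1.07 and -1.28 in proximal Cdx2-sgRNA, distal Scramble-sgRNA and distal Cdx2-sgRNA organoids. Amer1, which brings Apc to the membrane, was higher in proximal Scramble-sgRNA (1.74), distal Scramble-sgRNA (2.04) and distal Cdx2-sgRNA organoids (2.38). Between guides the edgeR test called 0 of the 16 in each of the 4 settings, with 5, 4, 5 and 0 at an unadjusted p under 0.05 in proximal WENR-minus, proximal WENR-plus, distal WENR-minus and distal WENR-plus and 0 by DESeq2 in each.

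Of 12 nuclear factors, 2, 0, 1 and 3 were higher and 1, 1, 1 and 2 lower with the factors. The counts higher were above the shares of all genes in proximal Scramble-sgRNA and distal Cdx2-sgRNA organoids and under them in the others. Those lower were near or under the shares, apart from the 1 lower in proximal Cdx2-sgRNA organoids. Tcf7l2, the main TCF factor of the intestine, was lower in all 4 settings, with log2 fold changes of -1.23, -1.31, -2.07 and -2.69. Tcf7 was higher in proximal Scramble-sgRNA (2.48), distal Scramble-sgRNA (2.73) and distal Cdx2-sgRNA organoids (3.63). Between guides the edgeR test called 3, 3, 4 and 0 of the 12 in proximal WENR-minus, proximal WENR-plus, distal WENR-minus and distal WENR-plus. The shares of all genes are those given for the receptors. Calls between guides were thus not confined to proximal organoids. In distal WENR-plus medium 2 of the 12 had an unadjusted p under 0.05 and DESeq2 called 1. Lef1, a target of the pathway as well as its effector, was lower with Cdx2-sgRNA in proximal organoids, at means of 0.851 against 26.4 CPM in WENR-plus medium (log2 fold change -4.93 ± 0.91, adjusted p = 0.00301). Of 15 other targets and crypt genes, 9, 4, 8 and 9 were higher and 1 lower in each setting, the latter being Id3 throughout; the counts higher were above the shares of all genes (8.24%, 2.98%, 14.2% and 18.1%). Only the 3 highest called genes of each setting were named. Sox9 was among them in the first 3 settings (2.21, 2.00 and 2.97). Cdca7 was among them in all but proximal Cdx2-sgRNA organoids (2.14, 3.13 and 4.31). A setting without a value here is not shown to lack a rise. Smoc2, a secreted protein of the stem cell niche, was lower with Cdx2-sgRNA in proximal organoids, at means of 0.362 against 40.8 CPM in WENR-plus medium (-6.79 ± 0.98, adjusted p = 0.000704), while Mmp7, a matrix protease, reached 874 against 36.2 CPM (4.59 ± 0.70, adjusted p = 0.000936). With Cdx2-sgRNA 5 of these 15 were higher and 3 lower in proximal WENR-minus medium, beside 9.04% and 12.1% of all genes, and 4 and 5 in proximal WENR-plus medium, beside 6.93% and 8.94%. In distal WENR-minus medium 2 were higher and 1 lower, beside 5.25% of all genes in either direction. In distal WENR-plus medium the edgeR test called 0, beside 0.262% of all genes, with 3 at an unadjusted p under 0.05 and 0 by DESeq2.

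Likeness of pattern was described by Pearson's correlation of log2 CPM over the 16 libraries, which share their media and groups and give no p. Among the members, Lgr5 and Ascl2 were closest (0.980), followed by Lgr5 and Znrf3 (0.955), Ascl2 and Znrf3 (0.943) and Lgr5 and Axin2 (0.938). The lowest values were those of Apcdd1 with Notum (-0.385) and Notum with Nkd1 (-0.118). Among 9903 other genes with a mean of at least 5 CPM, the genes most like Axin2 were Sept10 (0.948), Sox9 (0.948) and Zfp81 (0.945), and those most like Lgr5 were Zfp81 (0.981), Agbl5 (0.965) and Gm5165 (0.961). Ascl2 was closest to Agbl5 (0.972), Mrpl19 (0.967) and Gm5165 (0.964), so that 2 of the 3 were shared with Lgr5. Nkd1 was closest to Tfap2c (0.943), Pou4f1 (0.894) and Neto2 (0.857), Notum to Ass1 (0.961), Snapin (0.953) and Pebp1 (0.943), and Apcdd1 to Eif2ak4 (0.954), Whrn (0.940) and Rnf32 (0.939). Rnf43 was closest to Dyrk3 (0.952), Jade3 (0.942) and Fbxo3 (0.940), and Znrf3 to Rbm26 (0.984), Zkscan8 (0.983) and 2610021A01Rik (0.980). Sp5 was closest to 2610008E11Rik (0.879), Mdm4 (0.873) and Map3k15 (0.846), and Tnfrsf19 to Zfp955b (0.909), Gtf2h5 (0.902) and Gm10778 (0.883).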

How the data were processed

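RNA-seq of 16 mouse colon organoid libraries (2 in each of 8 groups) was used. The authors prepared SMARTer stranded total RNA libraries and ran Salmon 1.1.0 on a GENCODE mm10 index, then tximport and DESeq2 for their own tests (1.32 per the submitters' processing notes, and another version in the study's software list). The deposited tables hold estimated counts and TPM per transcript (140748 transcripts), which the authors' Salmon run made without scaling counts between libraries. Here 139864 transcripts were summed to 54123 genes with GENCODE vM21 names; 884 did not match and held 0.257% to 0.510% of the counts. Summed estimated counts were rounded and fitted with edgeR 4.0.16 (R 4.3.3, TMM, filterByExpr, quasi-likelihood test, 1 coefficient per group, 8 residual degrees of freedom), leaving 15289 genes, all 10 members among them. The alternatives were RLE scaling, no filter, DESeq2 1.42.0, blocks, no fold threshold, length-scaled counts and leaving out each library. The code was tested on simulated data. Depth was 12465194 to 18922143 counts, and a gene at 3 reads or fewer in a group was treated as at the floor.

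The members, the pathway lists, the marker lists and the rule for other named genes (at most 3 highest and 3 lowest called per pathway list, and the 3 most alike per member) were chosen with earlier results of these data known. The study names 2 mice and the labels number the replicates 1 and 2, so a number was taken as a mouse. Deviations from the group means of same-numbered libraries correlated at 0.281 to 0.589 between the media of a culture (4 pairs), at -0.059 to 0.189 between other groups of a region (8 pairs) and at -0.015 to 0.116 between regions (16 pairs). The replicate block was therefore an alternative, and the main test did not pair the media of a culture. Its p-values rest on the spread between the 2 libraries of a group, estimated together over the 8 groups.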

Additional observations from a re-analysis of the deposited data

Results flagged for a closer look

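The Cdx2-sgRNA minus Scramble-sgRNA difference was not the same in proximal and distal organoids for 5 genes by the test of the difference itself. In WENR-minus medium the difference was larger in proximal organoids for Notum (adjusted p = 0.00655), Rnf43 (adjusted p = 0.0301) and Znrf3 (adjusted p = 0.0208), beside 5.17% of all genes. In WENR-plus medium Notum differed again (adjusted p = 0.00604), beside 1.22% of all genes higher. There the difference was lower in proximal organoids for Nkd1 (adjusted p = 0.0267) and Apcdd1 (adjusted p = 0.0131), beside 3.76% of all genes lower. Distal Nkd1 held 4 and 4 reads with Scramble-sgRNA and 3 and 4 with Cdx2-sgRNA. It had little room to fall, so its call does not show that the regions responded differently. With Cdx2-sgRNA the medium effect on Znrf3 was smaller in proximal than in distal organoids (adjusted p = 0.0182), beside 9.86% of all genes. Only the Notum call in WENR-plus medium held whichever library was left out. Nkd1 and Notum held few reads in the distal groups, and the libraries on which these calls rest are given with each result.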

How the results depend on the processing

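Of 70 gene-level results, 70 kept their direction and side of the threshold with RLE scaling, 63 with DESeq2 (5 gained and 2 lost a call), 62 with length-scaled counts (2 gained, 5 lost, 1 changed direction), 62 without the filter (7 gained, 1 lost) and 66 with the replicate block (4 gained). The replicate block changed no call other than those given beside the results, and a block for each culture gained 1 of 33, the proximal Scramble-sgRNA medium effect of Apcdd1. With length-scaled counts the uncalled Cdx2 effect on Axin2 in proximal WENR-plus organoids was -0.016. Leaving out 1 library kept 248 of 316 gene-level values, lost 61 calls, gained 6 and turned 1, the uncalled Lgr5 Cdx2 effect in proximal WENR-minus organoids, which ran from -1.29 to 0.31. The cause of these changes was not tested.

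The number of members called moved as follows. Without the filter it was 1 for the Cdx2 effect in distal WENR-minus and 1 in distal WENR-plus medium, 3 and 4 for the Scramble-sgRNA region effect in WENR-minus and WENR-plus medium, 5 for the regional difference of Cdx2 effects in WENR-minus medium and 1 for the guide difference of medium effects in proximal organoids. With the replicate block it was 1 for the distal WENR-minus Cdx2 effect and 2 for the Scramble-sgRNA region effect in WENR-minus medium, for which DESeq2 also gave 2. Length-scaled counts gave 0 for the Scramble-sgRNA region effect in each medium. With 1 library left out the counts ran from 6 to 9, 3 to 7, 5 to 8 and 6 to 6 for the medium effect (proximal Scramble-sgRNA, proximal Cdx2-sgRNA, distal Scramble-sgRNA, distal Cdx2-sgRNA), and from 3 to 5 and 4 to 4 for the Cdx2 effect in proximal WENR-minus and WENR-plus, 0 to 1 in distal WENR-minus and 0 in distal WENR-plus medium. The Scramble-sgRNA region effect ran from 0 to 2 in WENR-minus and was 0 in WENR-plus medium, the regional difference of Cdx2 effects from 0 to 3 and 1 to 3, and that of medium effects with Cdx2-sgRNA from 0 to 1. A lone library left in a group was assumed to vary like the other groups. Depth limits Sp5, Nkd1, Tnfrsf19, Notum and Apcdd1 most, which had 3 or fewer reads in several libraries each.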
